A study of Mus musculus with 8 samples.

Results

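The 37 genes described here encode chaperones of the endoplasmic reticulum (ER), the sensors and transcription factors of the unfolded protein response, and the machinery that carries proteins into, out of and away from that compartment. They were listed by gene symbol for their place in the pathway by a rule that uses no measured value, although earlier results of these data were known when the list was made. A gene was represented by the probe set that the platform annotates to that symbol alone, and where several did, by the one with the highest mean over the arrays. All 37 symbols were found, 34 of them with 1 probe set, among 19937 genes represented in this way.

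The RNA came from regulatory T cells, called Tregs, which restrain immune responses and carry the transcription factor FoxP3. FoxP3+ cells had been sorted from wild-type mice, called WT, and from animals with a genotype label of Bcl6 knock-out (KO), Bcl6 being a transcriptional repressor of lymphocytes. Cells of both groups had been stimulated with anti-CD3 and anti-CD28 for 16 h before RNA was extracted, and 100 ng of total RNA per array was labelled without removal of ribosomal RNA. There were 8 Affymetrix arrays, 4 per group, and each group held preparations 1 and 2 with arrays lettered A and B. Which part of Bcl6 was deleted, in which cells, the age and sex of the mice, and whether a preparation or a letter stands for a separate animal or extract are not stated in the labels. The p-values therefore measure only the spread between these arrays and preparations, which may be technical.

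Bcl6 itself was at 9.0, 8.82, 8.54 and 8.51 log2 in the arrays labelled KO 1A, KO 1B, KO 2A and KO 2B, and at 7.97, 8.36, 8.33 and 7.86 log2 in WT 1A, WT 1B, WT 2A and WT 2B. No KO-labelled array was thus below any WT array (log2 difference 0.59, SE 0.29, limma adjusted p = 0.701), and since the deleted part and the place of the probes were not used here, this level does not check the label. The arrays are called KO-labelled, or KO for short, throughout. The SD of the log2 values over all probe sets was 1.867 and 1.839 in the KO 1 arrays against 1.559 to 1.70 in the other 6. The 8 Treg and T cell markers had a mean of 10.76 to 11.41 log2 in the KO-labelled arrays and 10.05 to 10.78 log2 in WT. That mean was 5.95 to 6.34 against 6.08 to 6.37 log2 for 12 B cell and plasma cell markers, 6.40 to 6.63 against 6.28 to 6.68 log2 for 12 myeloid markers, and 5.84 to 6.11 against 6.05 to 6.13 log2 for 6 CD8 T cell and NK cell markers. A mean over 3 Y-linked genes (Eif2s3y, Kdm5d and Uty) was 4.62 to 4.80 log2 in the KO-labelled arrays and 6.95 to 8.30 log2 in WT, so the level of Y-linked transcripts and the genotype label cannot be told apart in any comparison of the groups.

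Proteins bound for secretion or for membranes fold in the ER with the help of chaperones, and unfolded chains that build up there set off the unfolded protein response through the sensors IRE1, PERK and ATF6. IRE1 splices the mRNA of the transcription factor XBP1, ATF6 is itself cut to release a transcription factor, and PERK slows translation while favouring that of ATF4. Their targets include the chaperones, the channel and vesicle coats of the secretory path, and the system that returns misfolded chains to the cytosol for degradation. Lymphocytes that secrete large amounts of protein are known for a large ER, and activated T cells also make cytokines and surface receptors through it. A probe set reports the level of a gene's transcripts over its probes, so neither the splicing of Xbp1 nor the cutting of ATF6 is measured here.

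The DNA elements through which these factors act were looked for in the promoters of the genes, because they show what some of the 37 share besides function. Windows from 250 bases before to 50 bases after the transcription start were available from RefSeq (GRCm38.p6) for 32 of the 37 genes. The ER stress element, a site for ATF6 and XBP1 with the letters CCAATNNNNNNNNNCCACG on either strand, was present in 9 of the 32 genes (28.1%) and in 37 of all 27025 genes with a window (0.137%). Hsp90b1 held it at 2 places. The genes with this element follow, with its letters in capitals and 15 bases on each side, read 5′ to 3′ along the strand of the gene. Capitals that start with CGTGG are the element read from the other strand.
Hspa5, chr2:34772010-34772058 (+): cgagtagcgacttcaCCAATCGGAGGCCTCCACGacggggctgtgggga
Hsp90b1, chr10:86705518-86705671 (-): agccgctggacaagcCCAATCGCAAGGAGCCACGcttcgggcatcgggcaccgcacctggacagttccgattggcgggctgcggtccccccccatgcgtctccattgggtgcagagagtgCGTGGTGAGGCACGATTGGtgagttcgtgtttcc
Dnajc3, chr14:118937812-118937860 (+): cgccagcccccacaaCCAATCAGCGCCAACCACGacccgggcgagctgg
Calr, chr8:84847060-84847108 (-): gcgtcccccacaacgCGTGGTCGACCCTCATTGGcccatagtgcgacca
Canx, chr11:50325785-50325833 (-): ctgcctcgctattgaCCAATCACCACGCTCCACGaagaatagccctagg
Pdia6, chr12:17266476-17266524 (+): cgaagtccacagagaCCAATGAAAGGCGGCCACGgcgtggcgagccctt
Creld2, chr15:88819505-88819553 (+): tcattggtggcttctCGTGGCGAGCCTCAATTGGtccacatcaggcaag
Derl3, chr10:75893227-75893275 (+): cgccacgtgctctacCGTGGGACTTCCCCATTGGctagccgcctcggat
Syvn1, chr19:6046517-6046565 (+): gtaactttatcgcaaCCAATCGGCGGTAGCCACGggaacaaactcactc

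The related element ERSE-II, with the letters ATTGGNCCACG, was found in Dnajb11 and Herpud1, which is 6.25% of the 32 genes against 0.0444% of all genes with a window. A site of the kind bound by ATF4 with its partners, TGATGNAA on either strand, was found in Asns, Chac1, Herpud1 and Trib3, or 12.5% against 4.51% of all genes. Both forms of the stress element end in CCACG, but no match of one overlapped another in the genes shown. Those of Herpud1, which carries both kinds, and of Asns and Chac1 are shown in the same way; in Herpud1 the first capitals are the ATF4 site and the second the ERSE-II.
Herpud1, chr8:94386302-94386402 (+): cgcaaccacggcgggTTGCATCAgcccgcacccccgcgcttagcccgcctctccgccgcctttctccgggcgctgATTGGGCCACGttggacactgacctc
Asns, chr6:7693210-7693247 (-): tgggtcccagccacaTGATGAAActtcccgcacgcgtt
Chac1, chr2:119351034-119351071 (+): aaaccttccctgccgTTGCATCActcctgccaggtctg
A match in these letters is a description of the window and does not show that a factor binds there.

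Most ER genes had their highest levels in the KO 1 arrays, with KO 2 only slightly above WT. The median log2 level of the 37 genes was 9.98 and 9.65 in the KO 1 arrays A and B, 8.72 in KO 2A and 8.64 in KO 2B, and 8.28, 8.69, 8.50 and 8.22 in WT 1A, 1B, 2A and 2B. The KO 1 arrays thus stood apart from the other 6, while KO 2A and WT 1B differed by little. Against the mean of the WT arrays, the median difference of the genes was 1.11 log2 in KO 1 and 0.21 log2 in KO 2, where the medians over all genes were -0.13 and 0.02 log2. The difference from WT was above 0 in KO 1 for 32 of the 37 genes and in KO 2 for 35, against 42.7% and 56.7% of all genes. These shares rose with level. Among genes with a mean of 8 to 10 log2, the KO 1 difference was above 0 in 20 of 21 ER genes and in 4021 of all 4559. The KO 2 difference was above 0 in all 21 and in 2760 of the 4559. The difference from WT reached 1 log2 in KO 1 for 25 of the 37 genes (10.6% of all genes) and in KO 2 for 0 of them (0.351% of all genes).

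**Figure D1:**
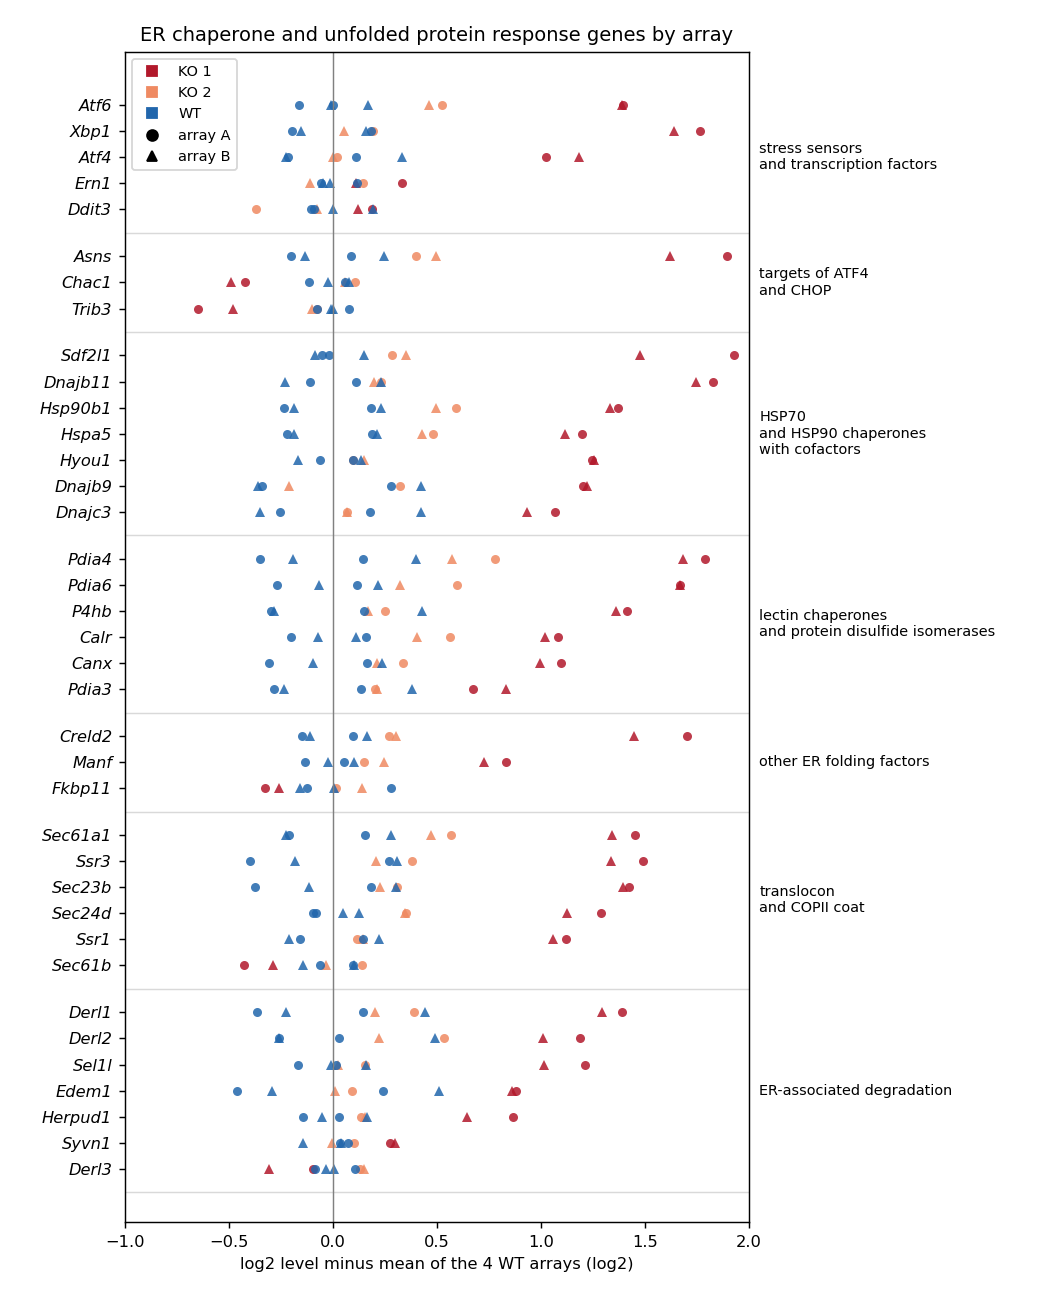
Log2 level of each of the 37 ER genes in each array minus the mean of the 4 WT arrays, 1 row per gene, with KO 1, KO 2 and WT arrays marked separately. The KO 1 arrays lie to the right of the other 6 for 30 of the 37 genes, and the KO 2 arrays lie within the WT range for 11.

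With both preparations in the fit, none of the 37 genes passed the test. The median fitted difference between KO-labelled and WT arrays was 0.69 log2, against -0.06 log2 over all genes, and 31 of the 37 differences were above 0 (43.2% of all genes). Among genes with a mean of 8 to 10 log2, 20 of 21 ER genes and 3840 of all 4559 genes were above 0. With limma and Benjamini-Hochberg adjustment over all 19937 genes, 0 of the 37 had an adjusted p under 0.05, where 27 genes did in all (0.135%). The adjusted p ranged from 0.482 for Atf6 to 0.941 for Ddit3 and Derl3. The unadjusted p was under 0.05 for 14 of the 37 genes, all of them higher, against 5.65% of all genes higher. That share also depended on level. For means of 8 to 10 log2 it held for 8 of 21 ER genes and 577 of all 4559 genes. For means of 10 log2 and over it held for 5 of 7 ER genes and 63 of 518. In that fit the spread between the preparations of a group enters through 1 correlation shared by all genes (0.617). The gap of a single gene between its preparations is therefore only partly counted in its SE and p. KO 1 was above KO 2 by a median of 0.88 log2 over the 37 genes. For Xbp1 that gap was 1.58 log2, beside an SE of 0.41 log2.

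The order of the arrays was the same for many of the genes. Both KO 1 arrays were above all 6 others in 30 of the 37 genes (32.9% of all genes) and below all 6 in 5 (40.7%). Both KO-labelled preparations were above the whole WT range in 12 of the 37, namely Atf6, Asns, Hspa5, Hsp90b1, Sdf2l1, Calr, Pdia4, Pdia6, Creld2, Manf, Sec61a1 and Sec24d, against 6.67% of all genes. The reverse held for Trib3 alone (2.11% of all genes), which was also the 1 gene with both KO 2 arrays below every WT array (4.75%). The KO 2 arrays were above every WT array for the same 12 genes and Derl3 (9.54% of all genes), and inside the WT range for 11 (56.3%). Both KO 1 arrays were above both KO 2 arrays in 31 of the 37 genes (39% of all genes). With a mean of 8 to 10 log2, this was so for 20 of 21 ER genes and 3972 of all 4559 genes. For 30 of the 37 genes the difference between KO 2 and WT was smaller than the range of that gene over the WT arrays (92.4% of all genes), and for KO 1 this was so for 3 (38.9%).

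The WT arrays also differed among themselves, and not by preparation number. WT 1B and WT 2A were both above WT 1A and WT 2B in 27 of the 37 genes (29.3% of all genes). Genes of similar level largely shared this order. It held for 18 of 21 ER genes and 3366 of all 4559 genes with a mean of 8 to 10 log2. With a mean of 10 log2 and over it held for 7 of 7 and 482 of 518. The root mean square difference over the 37 genes was 0.142 log2 between WT 1A and WT 2B and 0.176 log2 between WT 1B and WT 2A, but 0.480 log2 between WT 1A and WT 1B and 0.301 log2 between WT 2A and WT 2B. The arrays of a KO-labelled preparation were close to each other, at 0.15 log2 in KO 1 and 0.158 log2 in KO 2. The fit takes arrays of 1 preparation as related, whereas the WT arrays lay closest across preparations.

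**Figure D2:**
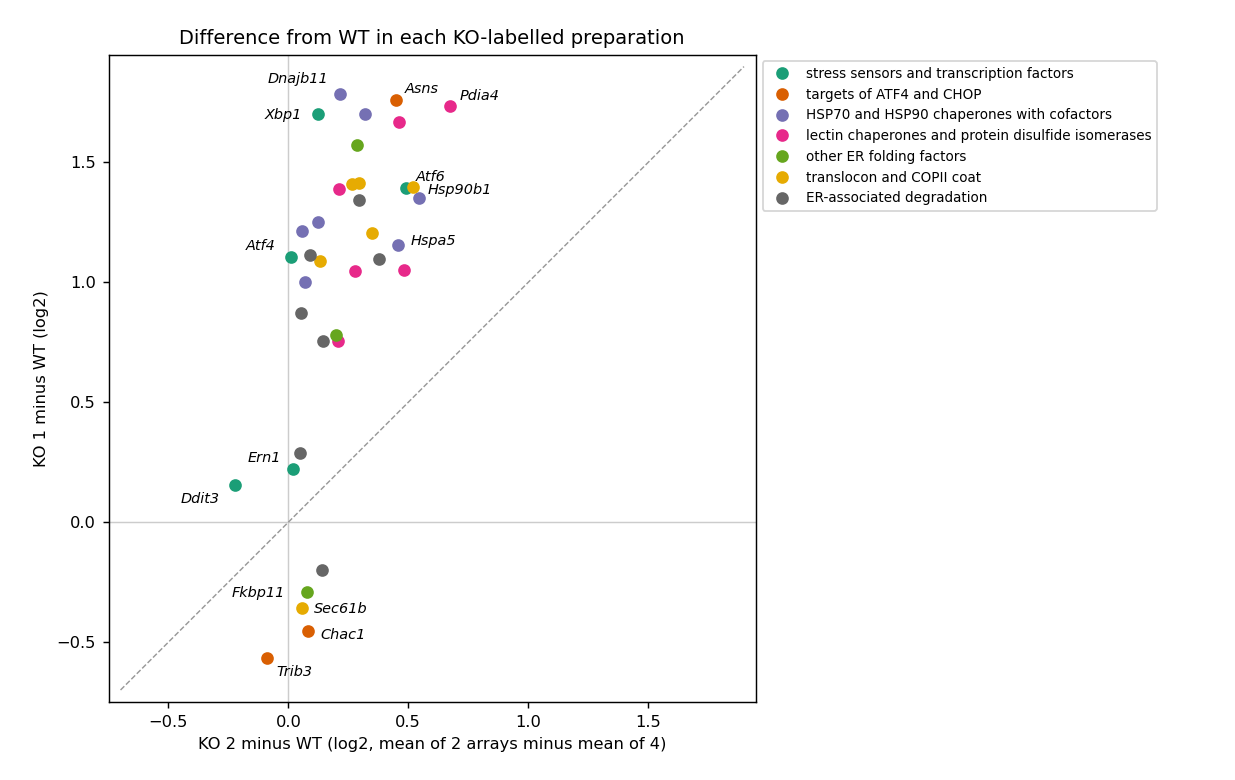
Difference from the mean of the 4 WT arrays in KO 2 (horizontal axis, log2) and KO 1 (vertical axis, log2), 1 point per ER gene marked by role. Of the 37 genes, 25 lie at 1 log2 or more in KO 1 and 0 in KO 2, and Trib3 and Ddit3 are the genes below 0 in KO 2.

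The difference from WT varied with the level of a gene on the arrays, though not in a steady rise, among the ER genes and among all genes alike. For genes with a mean of 8 to 10 log2, the median difference of KO 1 from WT was 1.34 log2 over 21 ER genes and 0.71 log2 over all 4559 genes. For means of 10 log2 and over, these values were 1.16 log2 over 7 ER genes and 0.68 log2 over 518 genes. For means of 6 to 8 log2 they were 0.16 log2 over 9 ER genes and -0.33 log2 over 10602 genes. In KO 2 the medians of the same 3 classes were 0.21, 0.46 and 0.06 log2 for the ER genes and 0.05, 0.14 and 0.02 log2 for all genes. Among genes with a mean of 8 log2 and over, the KO 1 arrays were above the 6 others in 27 of 28 ER genes and in 75.2% of 5077 genes. The KO-labelled arrays lay entirely above WT in 11 of the 28 and in 13.9% of the 5077. The part that the wider spread of values in the KO 1 arrays has in these differences was not tested. After quantile normalization, which gives every array the same spread, the median difference of the ER genes was 0.74 log2 in KO 1 and 0.14 log2 in KO 2, and 0 of the 37 were called, against 0.787% of all genes (0.607% higher). There the unadjusted p was under 0.05 for 20 genes that were higher and 1 that was lower (8.98% of all genes higher), and 32 differences were above 0 (47.7%). Of all 19937 genes, 653 were lower at that p. These shares after quantile normalization were not broken down by level. As deposited, the median level was 8.89 log2 for the ER genes and 7.05 log2 for all genes. The 8 Treg and T cell markers, all with a mean over 10 log2, were higher as well, with a median difference of 0.90 log2 in KO 1 and 0.45 log2 in KO 2. The KO 1 arrays were above the 6 others in 7 of the 8 markers, and in 391 of all 518 genes with a mean of 10 log2 and over. Bulk RNA does not tell a change in the number of cells of a kind from a change in the RNA of each cell.

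**Figure D3:**
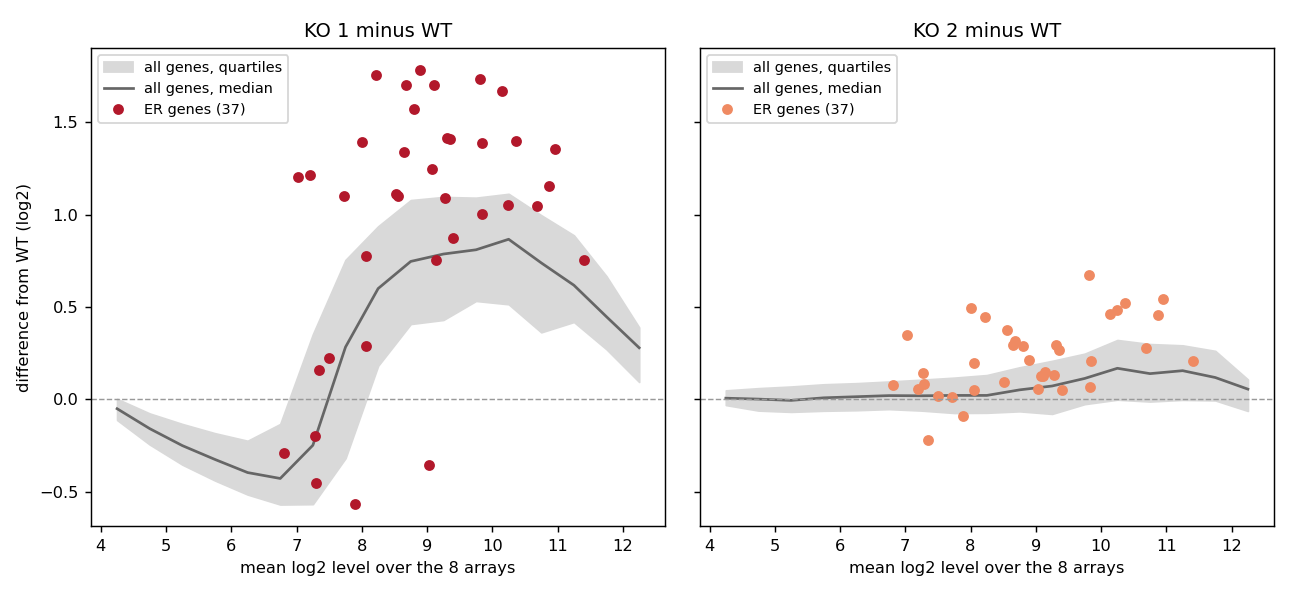
Difference from WT (log2) against the mean log2 level over the 8 arrays, for KO 1 on the left and KO 2 on the right; points are the ER genes, and the line and band are the median and the quartiles of all genes in level classes of 0.5 log2. The median of all genes in KO 1 is -0.43 log2 at levels of 6.5 to 7 and 0.87 log2 at levels of 10 to 10.5, and most ER genes of level 8 and over lie above it. That median is -0.05 log2 at levels of 4 to 4.5 and 0.28 log2 at levels of 12 to 12.5.

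Of the sensors and transcription factors, Xbp1, Atf6 and Atf4 were highest in both KO 1 arrays, and only for Atf6 did the KO-labelled and WT groups not overlap. Xbp1, the transcription factor that IRE1 splicing activates, was at 10.41 and 10.29 log2 in KO 1A and 1B, 8.84 and 8.70 in KO 2A and 2B, and 8.45, 8.81, 8.83 and 8.50 in the WT arrays 1A, 1B, 2A and 2B. KO 1 was 3.26-fold above the WT mean and KO 2, whose arrays overlapped with WT, 1.09-fold (log2 difference of the groups 0.91, SE 0.41, adjusted p = 0.701). Ern1, which encodes the sensor IRE1 itself, was at 7.77, 7.55, 7.58 and 7.33 log2 in the same order of KO-labelled arrays and at 7.55, 7.42, 7.38 and 7.39 log2 in WT. The groups overlapped, with a difference of 0.12 log2 (SE 0.22, adjusted p = 0.777).

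Atf6, the sensor that becomes a transcription factor when cut, was at 8.93 and 8.93 log2 in KO 1, 8.06 and 8.00 in KO 2, and 7.38, 7.71, 7.54 and 7.53 in WT. Its groups did not overlap and KO 2 lay between KO 1 and WT, at differences from WT of 1.39 log2 in KO 1 and 0.49 log2 in KO 2. The difference of the groups was 0.94 log2 (SE 0.29), and its adjusted p of 0.482 was the lowest of the 37 genes. Atf4, the factor whose translation PERK favours, was at 8.47 and 8.62 log2 in KO 1, 7.46 and 7.45 in KO 2, and 7.22, 7.77, 7.55 and 7.22 in WT. Only its KO 1 arrays stood above WT, by 1.10 log2 against 0.01 log2 in KO 2 (adjusted p = 0.701). Ddit3, which encodes the stress factor CHOP that ATF4 induces, was at 7.55 and 7.49 log2 in KO 1, 7.0 and 7.29 in KO 2, and 7.27, 7.36, 7.26 and 7.56 in WT. It had no order by group, with a difference of -0.03 log2 (SE 0.24, adjusted p = 0.941).

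The 3 targets of ATF4 and CHOP went different ways. Asns, asparagine synthetase, was at 9.57 and 9.29 log2 in KO 1, 8.07 and 8.17 in KO 2, and 7.76, 7.92, 7.47 and 7.54 in WT. Its KO-labelled arrays were all above WT, by 3.38-fold in KO 1 and 1.36-fold in KO 2 (log2 difference 1.10, SE 0.35, adjusted p = 0.514). Trib3, a pseudokinase that restrains ATF4 and CHOP, was at 7.40 and 7.57 log2 in KO 1, 7.98 and 7.95 in KO 2, and 8.13, 8.05, 7.98 and 8.06 in WT. Here the KO 1 arrays were the lowest and KO 2 lay just under WT (log2 difference -0.33, SE 0.23, adjusted p = 0.701). Chac1, which degrades glutathione, was at 6.96 and 6.90 log2 in KO 1, 7.49 and 7.44 in KO 2, and 7.45, 7.36, 7.27 and 7.46 in WT, so that its lowest arrays were those of KO 1. All 3 of these genes hold the ATF4 site in their promoter windows. Over the 8 arrays, Trib3 and Chac1 had means of 7.89 and 7.29 log2, and Asns 8.22 log2. Both KO 1 arrays were below the 6 others in 5559 of all 10602 genes with a mean of 6 to 8 log2.

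The HSP70 and HSP90 chaperones and their cofactors were above WT in all 7 genes, with a median difference of 1.25 log2 in KO 1 and 0.21 log2 in KO 2. Of the 7, 4 were higher at an unadjusted p under 0.05, as were 5.65% of all genes and 577 of the 4559 with a mean of 8 to 10 log2. Hspa5 encodes BiP, the HSP70 chaperone that also holds the stress sensors inactive. It was at 11.67 and 11.59 log2 in KO 1, 10.95 and 10.90 in KO 2, and 10.25, 10.69, 10.66 and 10.29 in WT, or 11.28 ± 0.41 against 10.47 ± 0.23 (SD, n = 4 each). Its groups did not overlap, and KO 1 was 2.23-fold and KO 2 1.37-fold above the WT mean (log2 difference 0.81, SE 0.33, adjusted p = 0.701). Sdf2l1, a partner of BiP and its J proteins, had the highest difference of the 7. It was at 10.11 and 9.65 log2 in KO 1, 8.46 and 8.53 in KO 2, and 8.13, 8.33, 8.16 and 8.09 in WT. All KO-labelled arrays were above WT, by 1.70 log2 in KO 1 and 0.32 log2 in KO 2 (log2 difference 1.01, SE 0.38, adjusted p = 0.667).

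Dnajc3, a J protein also called p58IPK that inhibits PERK, had the lowest difference of these 7. It was at 10.64 and 10.51 log2 in KO 1, 9.64 and 9.64 in KO 2, and 9.32, 9.99, 9.75 and 9.22 in WT. KO 2 lay within the WT range, and the difference of 1.00 log2 in KO 1 stood beside a range of 0.78 log2 over the WT arrays (adjusted p = 0.701). Hsp90b1, the ER member of the HSP90 family, was above WT by 1.35 log2 in KO 1 and 0.54 log2 in KO 2, with groups that did not overlap. Dnajb11, a J protein that hands unfolded chains to BiP, had the largest difference of the 37 genes in KO 1, at 1.79 log2 or 3.45-fold, but 0.21 log2 in KO 2. Hyou1, a large relative of HSP70 that exchanges the nucleotide of BiP, was above WT by 1.25 and 0.12 log2, and Dnajb9, a J protein that represses IRE1, by 1.21 and 0.06 log2 in KO 1 and KO 2.

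Of the lectin chaperones and protein disulfide isomerases, which fold glycoproteins and form disulfide bonds, all 6 were above WT in both preparations, with medians of 1.22 log2 in KO 1 and 0.37 log2 in KO 2. Pdia4, a protein disulfide isomerase, had the highest group difference of the 37 genes, at 10.998 and 10.89 log2 in KO 1, 9.99 and 9.78 in KO 2, and 8.86, 9.61, 9.35 and 9.01 in WT. Its groups did not overlap, and KO 1 was 3.33-fold and KO 2 1.60-fold above the WT mean (log2 difference 1.21, SE 0.40, adjusted p = 0.561). A second Pdia4 probe set, with a lower mean of 7.0 log2, did not show this. It was at 7.19 and 7.14 log2 in KO 1, 6.98 and 6.81 in KO 2, and 7.24, 6.81, 6.87 and 6.97 in WT, with groups that overlapped. Pdia3, the isomerase that works with the lectin chaperones on glycoproteins, had the lowest difference of the 6. It was at 11.84 and 11.9998 log2 in KO 1, 11.37 and 11.38 in KO 2, and 10.88, 11.55, 11.30 and 10.93 in WT. KO 2 lay within the WT range, and KO 1 was 0.75 log2 above the WT mean, where the WT arrays themselves ranged over 0.67 log2. Calr, the soluble lectin chaperone calreticulin, was above WT by 1.05 log2 in KO 1 and 0.48 log2 in KO 2 with no overlap of the groups, and Canx, its membrane-bound relative calnexin, by 1.05 and 0.28 log2 with overlap. Pdia6 and P4hb, isomerases of the same family, were above WT by 1.67 and 1.39 log2 in KO 1 and by 0.46 and 0.21 log2 in KO 2.

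Of 3 other folding factors, Creld2 and Manf were above WT and Fkbp11 was not. Creld2, an ER protein with isomerase activity, was at 10.03 and 9.78 log2 in KO 1, 8.60 and 8.64 in KO 2, and 8.18, 8.49, 8.43 and 8.22 in WT. Its groups did not overlap, at 1.57 log2 in KO 1 and 0.29 log2 in KO 2 (log2 difference 0.93, SE 0.36, adjusted p = 0.695). Manf, a protein secreted on ER stress, was above WT by 0.78 and 0.20 log2, also with no overlap. Fkbp11, a prolyl isomerase known from secretory cells, was at 6.53 and 6.60 log2 in KO 1, 6.88 and 7.0 in KO 2, and 7.14, 6.70, 6.73 and 6.86 in WT. Its lowest arrays were those of KO 1, and the difference of the groups was -0.11 log2 (SE 0.24, adjusted p = 0.809).

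The translocon, through which new chains enter the ER, and the COPII coat, which forms the vesicles that leave it, were above WT in 5 of 6 genes, with medians of 1.30 log2 in KO 1 and 0.28 log2 in KO 2. Sec61a1, the pore subunit of the translocon, was at 11.34 and 11.23 log2 in KO 1, 10.45 and 10.36 in KO 2, and 9.68, 10.16, 10.04 and 9.66 in WT. All its KO-labelled arrays were above WT, by 2.63-fold in KO 1 and 1.43-fold in KO 2 (log2 difference 0.96, SE 0.35, adjusted p = 0.652). Sec61b, a small subunit of the same channel, was at 8.68 and 8.82 log2 in KO 1, 9.25 and 9.07 in KO 2, and 9.20, 8.96, 9.05 and 9.21 in WT. Its KO 1 arrays were the lowest and the groups overlapped, with a difference of -0.15 log2 (SE 0.26, adjusted p = 0.761). Sec61b has 3 probe sets that did not go the same way, and their mean differed by 0.01 log2. Ssr1 and Ssr3, subunits of the translocon-associated complex, were above WT by 1.09 and 1.41 log2 in KO 1 and 0.13 and 0.29 log2 in KO 2. The coat subunits Sec23b and Sec24d were above WT by 1.41 and 1.21 log2 in KO 1 and 0.27 and 0.35 log2 in KO 2, and the groups did not overlap for Sec24d.

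ER-associated degradation, which returns misfolded chains to the cytosol, was above WT in 6 of 7 genes, with medians of 0.87 log2 in KO 1 and 0.14 log2 in KO 2. These medians were near those of all genes at levels of 8.5 to 9, which were 0.75 and 0.05 log2. The median level of the 7 genes was 8.555 log2, and 0 of them had an unadjusted p under 0.05. At that p, 5.65% of all genes and 577 of the 4559 with a mean of 8 to 10 log2 were higher. A count of 0 among 7 genes is near those shares. Derl1, a channel component of this system, had the highest group difference of the 7, with levels of 9.63 and 9.54 log2 in KO 1, 8.63 and 8.44 in KO 2, and 7.88, 8.69, 8.39 and 8.02 in WT. KO 2 lay within the WT range, and the KO 1 arrays were above it (log2 difference 0.82, SE 0.40, adjusted p = 0.701). Its paralog Derl3 was at 7.2 and 6.99 log2 in KO 1, 7.42 and 7.44 in KO 2, and 7.40, 7.26, 7.21 and 7.30 in WT. For Derl3 the KO 1 arrays were the lowest and the KO 2 arrays just above WT, with a difference of the groups of -0.03 log2 (SE 0.22, adjusted p = 0.941). Derl2 was above WT by 1.10 log2 in KO 1 and 0.38 log2 in KO 2. Sel1l and Syvn1, partners in the ubiquitin ligase at the ER membrane, were above WT by 1.11 and 0.29 log2 in KO 1 and by 0.09 and 0.05 log2 in KO 2. Herpud1, a stress-induced organiser of that ligase, and Edem1, which speeds the disposal of misfolded glycoproteins, were above WT by 0.76 and 0.87 log2 in KO 1 and by 0.15 and 0.05 log2 in KO 2.

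**Figure D4:**
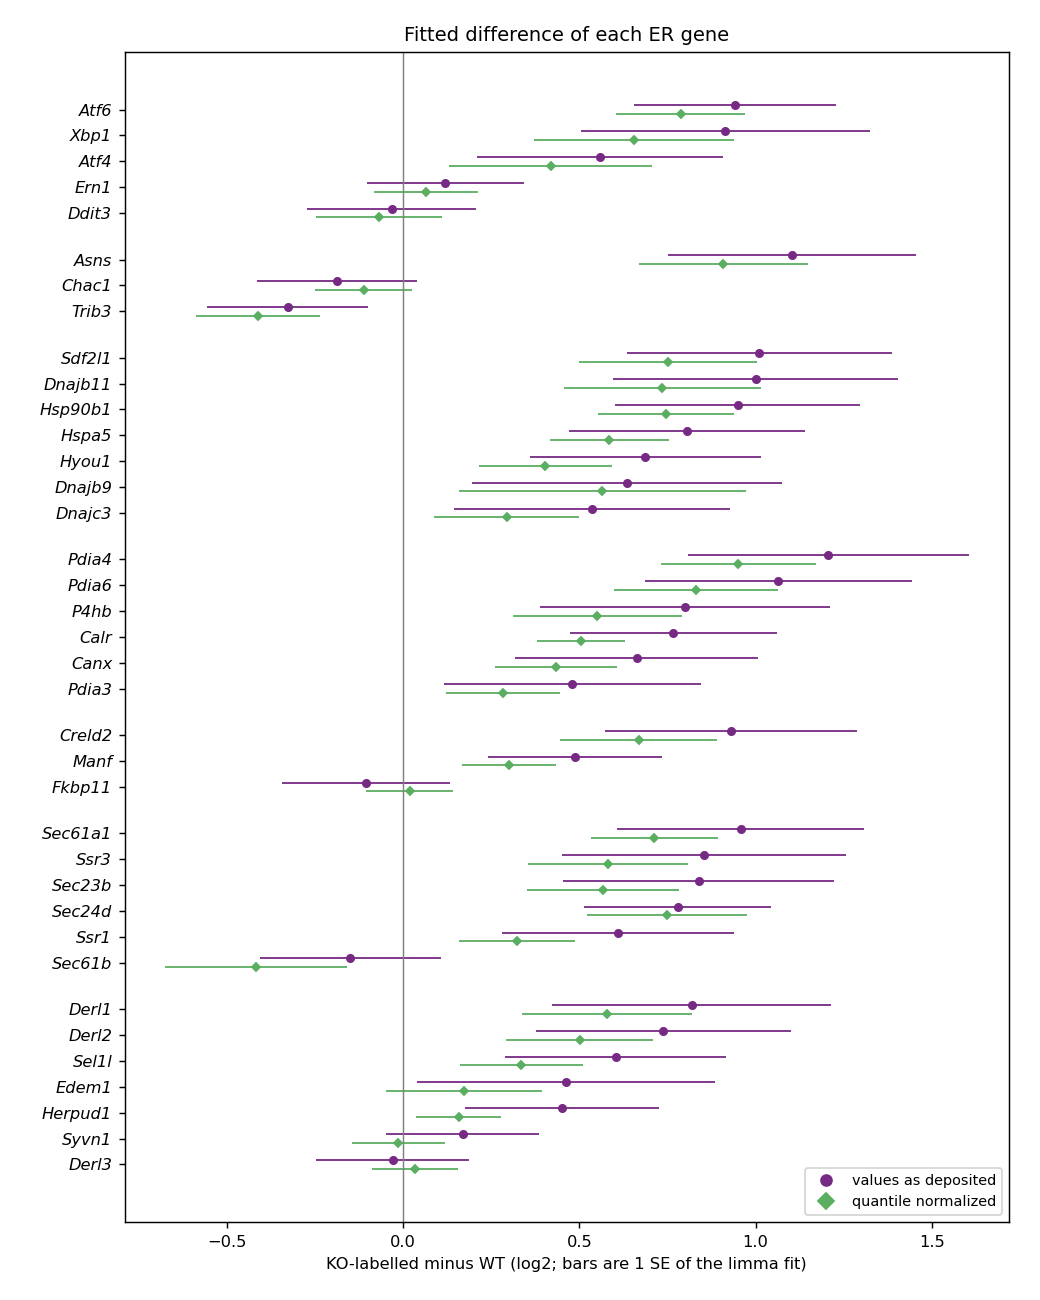
Fitted log2 difference of KO-labelled minus WT for each of the 37 ER genes, from the values as deposited (circles) and after quantile normalization (diamonds), with bars of 1 SE from the limma fit over all 8 arrays. As deposited, values run from -0.33 for Trib3 to 1.21 for Pdia4, 31 of the 37 are above 0, and 0 passed an adjusted p of 0.05.

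Genes with and without the ER stress element could be set side by side. The 9 ER genes with the element had a median difference from WT of 1.05 log2 in KO 1 and 0.29 log2 in KO 2, and the 23 with a window but no match had medians of 1.10 and 0.13 log2. The highest of the 9 was Pdia6, at 1.06 log2 between the groups, and the lowest Derl3, at -0.03 log2. Outside the 37 genes, 12 measured genes hold the element, and their medians were -0.45 log2 in KO 1 and 0.04 log2 in KO 2. The sets differ in level, with a median of 6.99 log2 for these 12, 10.14 log2 for the 9 and 8.68 log2 for the 23. All genes at levels of 6.5 to 7 had a median of -0.43 log2 in KO 1. In KO 2 the ER genes had a median of 0.21 log2 at means of 8 to 10 log2 and 0.46 log2 at means of 10 log2 and over.

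Another 106 genes of the same compartment and pathway, listed by function, lay much as the 37 did. Their median level was 9.42 and 9.35 log2 in KO 1A and 1B, 8.42 and 8.38 in KO 2A and 2B, and 7.93, 8.44, 8.22 and 7.97 in the WT arrays. None passed the test, and the unadjusted p was under 0.05 for 28 that were higher (5.65% of all genes) and 0 that were lower. Among all 4559 genes with a mean of 8 to 10 log2, 577 were higher at that p. The KO 1 arrays were above the 6 others in 93 of the 106, against 32.9% of all genes and 75.2% of those with a mean of 8 log2 and over, the median of the 106 being 8.49 log2. Of the 106, 96 were above the WT mean in KO 1 (42.7% of all genes) and 82 in KO 2 (56.7%). Of all 4559 genes with a mean of 8 to 10 log2, 4021 were above it in KO 1 and 2760 in KO 2. The 26 genes of translocation and glycosylation had medians of 1.19 log2 in KO 1, where all 26 were above WT, and 0.29 log2 in KO 2, where 23 were. The 16 other genes of ER-associated degradation were above WT in 16 and 10 cases, with medians of 0.89 and 0.09 log2. Of 21 genes of transport between ER and Golgi, 20 were above WT in KO 1 and 16 in KO 2, and of 20 genes of folding and oxidation 17 and 18. The PERK and ATF4 branch had 13 of 16 genes above WT in each preparation, and the ATF6 and CREB3 branch 4 of 7 in KO 1 and 2 of 7 in KO 2.

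The highest differences among the 106 were those of Cebpb, Ssr4 and Psat1. Cebpb, a transcription factor that pairs with ATF4, was at 10.13 and 9.72 log2 in KO 1, 8.21 and 8.46 in KO 2, and 7.23, 7.53, 7.72 and 7.80 in WT. Its groups did not overlap (log2 difference 1.56, SE 0.42, adjusted p = 0.363). Ssr4, a translocon-associated subunit, was above WT by 2.18 log2 in KO 1 and 0.79 log2 in KO 2, and Psat1, an ATF4 target of serine synthesis, by 1.92 and 0.49 log2. Eif2ak3, which encodes PERK, was above WT by 0.67 log2 in KO 1 and 0.03 log2 in KO 2. Ppp1r15a, the phosphatase subunit that ends the PERK signal, differed by 0.13 and 0.07 log2, and Atf3, a further factor of that branch, by 0.62 and 0.22 log2. The lowest differences were -0.45 log2 for Vldlr, a lipoprotein receptor, -0.38 log2 for Pdia2 and -0.36 log2 for Creb3l3.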

How the data were processed

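Each deposited value is the log2 level of a probe set, for which the submitters' processing notes name RMA and Partek, without versions. The authors' values entered the analysis with no further scaling, and scanner files were not used here. Of 28768 probe sets, 21771 carried 1 gene symbol, 1557 several and 5440 none in the platform annotation, and only those with 1 entered the test. Of the listed genes 6 were matched through gene identifiers and 9, none of the 37, were not matched. Of the per-sample columns, 0 were left unused.

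The group difference was fitted in R 4.3.3 by limma 3.58.1 (lmFit, eBayes with trend), with preparation as a random block through duplicateCorrelation (correlation 0.617, 12.8 degrees of freedom), two-sided, at a Benjamini-Hochberg adjusted p under 0.05 over 19937 genes. SE is that of the fitted difference. Each KO-labelled preparation against WT is given as values, with no test. The fit was tested on simulated data with noise of the same size in every array. Those data held neither the wider spread of the KO 1 arrays nor the likeness of WT arrays across preparations. That test therefore does not cover these features. Values are given array by array for Hspa5, Xbp1, Ern1, Atf6, Atf4, Ddit3 and the highest and lowest difference of each role, and for Chac1 and Cebpb after their values were seen. Other pathway genes named are Eif2ak3, Ppp1r15a, Atf3 and the 3 highest and 3 lowest differences. The 37 genes, though chosen by no measured value, and the lists and tests were settled with earlier results of these data known. The alternatives changed the block, the variance trend, the scaling, a filter at log2 6, the choice of probe set, and the arrays or preparations included. The number of arrays limits the precision.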

Additional observations from a re-analysis of the deposited data

Results flagged for a closer look

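In 4 of the 37 genes the arrays of KO 1 all lay on one side of the WT mean and those of KO 2 on the other, and the difference between the preparations was not tested. Ddit3 was above the WT mean in KO 1 and below it in KO 2, with KO 1 minus KO 2 at 0.379 log2. The opposite order held for Chac1, at -0.538 log2, for Fkbp11, at -0.369 log2, and for Derl3, at -0.341 log2. The share of all genes with such opposite sides was not counted. Over all genes, the difference from WT was above 0 for 42.7% in KO 1 and 56.7% in KO 2. At levels of 7 to 7.5 log2, those of Ddit3, Chac1 and Derl3, the medians of all genes were -0.249 log2 in KO 1 and 0.019 log2 in KO 2. At levels of 6.5 to 7 log2, that of Fkbp11, they were -0.429 and 0.020 log2.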

How the results depend on the processing

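No gene of the 37 passed the test with the values as deposited, and that count changed under 2 of 20 alternatives. With a replicate block (preparation number as a fixed term) 8 were called higher (Atf6, Asns, Hsp90b1, Sdf2l1, Pdia4, Pdia6, Sec61a1 and Sec24d). Of all 19937 genes, 677 were called in either direction with that block. Without preparation KO 2, with the arrays taken as independent, 29 were higher and 2 (Trib3 and Chac1) lower. In that fit 13378 of all 19937 genes were called, so a call there was common to most genes and not particular to the ER genes. The labels do not say that numbers are shared between groups, and with 2 numbers the correlation of KO 1 minus KO 2 with WT 1 minus WT 2 over all genes was 0.416. The count of all genes called, 27 as reported, was 677 with the replicate block, 113 with no random block, 52 with preparation means, 157 after quantile normalization, 14 after median centring, and 144, 13378, 12 and 6 without preparation KO 1, KO 2, WT 1 and WT 2. Leaving out each array gave 15 to 57. The median difference of the 37 genes was 0.206 log2 without KO 1 and 1.114 log2 without KO 2, and 0.564 to 0.848 log2 when each array was left out. The KO 1 median was 0.736 log2 after quantile normalization and 1.356 log2 after median centring. The sign was the same under every alternative in 31 genes. It turned after quantile normalization for Fkbp11 (0.0185), Derl3 (0.0335) and Syvn1 (-0.0144), after median centring for Ddit3 (0.0689) and Derl3 (0.0718), and with the mean over probe sets for Sec61b (0.0107). Without KO 1 it turned for Chac1 (0.0818), Fkbp11 (0.0778), Sec61b (0.0556) and Derl3 (0.1401), without KO 2 and without WT 2 for Ddit3 (0.1564 and 0.0115), and without WT 1 for Derl3 (0.0079). Leaving out single arrays gave -0.0656 to 0.0385 for Derl3, -0.0953 to 0.0559 for Ddit3 and -0.2078 to 0.0006 for Fkbp11. The cause was not tested.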
